A study of Mus musculus with 10 samples.

Results

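The RNA-seq values of 38 genes of the G2 phase and mitosis were examined in whole kidneys of E13.5 mouse embryos. The 38 genes were taken by symbol from a list of known function, drawn up with earlier results of these data known but with no measured value in its rule, and each was found on 1 of the 35663 entries of the expression table. They were sorted here into 9 roles, from the CDK1 switch that starts mitosis to the proteins that split the cell. All libraries came from C57/b6 embryos. The groups were 4 wild-type kidney libraries, 3 Foxd1GC control libraries, which the labels call Foxd1-Cre, and 3 Ntn1SPKO libraries, labelled Foxd1-Cre with Ntn1c/c. Both of the latter carry the Foxd1GC allele, which drives Cre in the stromal progenitors of the kidney cortex. The paper also names the loss of 1 Foxd1 allele in Foxd1GC, so both groups differ from wild-type kidneys in Foxd1 copies as well. In Ntn1SPKO kidneys Cre removes the conditional Ntn1 alleles in the lineage of these progenitors only. Netrin 1 is a secreted guidance protein that these progenitors make. The study set out to ask how losing it affects the developing kidney, and here the mitotic genes were compared between mutants and both reference groups. RNA came from whole kidneys, so a value joins all cell types. How many kidneys or embryos went into a library is not given in the sources used here, so p-values measure the spread between these libraries.

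A cell enters mitosis when the kinase Cdk1, bound to a B-type cyclin, becomes active. Polo and Aurora kinases then build the spindle, the spindle checkpoint holds the cell until every kinetochore is attached, and the anaphase-promoting complex destroys cyclin B and other proteins to let the chromosomes part. Most genes of these steps are transcribed late in the cell cycle and switched off in G1 and in resting cells, so that a tissue's level of their RNA depends on how many of its cells are in G2 and M. In the embryonic kidney, nephron progenitors, ureteric bud tips and stromal progenitors all divide. In whole-kidney RNA, fewer cycling cells and less RNA per cycling cell cannot be told apart.

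Promoters of this gene class are known for 2 short elements. The cell cycle genes homology region (CHR, TTTGAA) is bound by the DREAM and MYB-MuvB complexes, and the CCAAT box by NF-Y. RefSeq promoter windows of GRCm38, 250 bases before to 50 bases after the start, were matched by symbol for 31 of the 38 members. TTTGAA was found on either strand in 22 of these 31 (71.0%) and in 20.2% of the windows of all 27025 symbols. The variant TTTAAA was found in 10 members (32.3%) and in 14.9% of all symbols. CCAAT was found in 24 members (77.4%) and in 41.1% of all symbols, and 16 members (51.6%) held it at least 2 times against 13.3% of all. CCAAT together with TTTGAA or TTTAAA occurred in 21 of 31 members (67.7%) and in 12.2% of all. A match is a description of letters and not evidence of binding. The windows of the 4 most abundant members with both elements show how the elements are placed. They are written 5′ to 3′ on the strand of the gene, and capitals mark the CHR, its variant and the CCAAT box on either strand.
Top2a (GRCm38, chr11:99024140-99024439, minus strand): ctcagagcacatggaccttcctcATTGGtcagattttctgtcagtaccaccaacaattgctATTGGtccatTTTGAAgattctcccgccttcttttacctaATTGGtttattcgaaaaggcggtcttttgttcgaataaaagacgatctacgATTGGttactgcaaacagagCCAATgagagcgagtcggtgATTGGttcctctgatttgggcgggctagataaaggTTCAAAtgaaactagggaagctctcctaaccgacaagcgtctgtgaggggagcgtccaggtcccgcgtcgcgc
Ube2c (GRCm38, chr2:164769679-164769978, plus strand): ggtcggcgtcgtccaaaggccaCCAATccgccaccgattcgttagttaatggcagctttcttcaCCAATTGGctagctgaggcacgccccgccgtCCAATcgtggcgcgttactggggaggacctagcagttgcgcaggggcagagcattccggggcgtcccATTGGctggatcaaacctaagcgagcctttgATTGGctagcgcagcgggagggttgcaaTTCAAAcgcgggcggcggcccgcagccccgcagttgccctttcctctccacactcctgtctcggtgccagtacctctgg
Cdk1 (GRCm38, chr10:69352863-69353162, minus strand): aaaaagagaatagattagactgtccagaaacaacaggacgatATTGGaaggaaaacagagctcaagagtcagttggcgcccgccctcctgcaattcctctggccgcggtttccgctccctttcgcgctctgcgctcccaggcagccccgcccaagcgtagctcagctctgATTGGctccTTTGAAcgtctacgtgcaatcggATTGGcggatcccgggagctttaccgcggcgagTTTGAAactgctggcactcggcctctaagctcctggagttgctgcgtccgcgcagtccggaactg
Cenpa (GRCm38, chr5:30666636-30666935, plus strand): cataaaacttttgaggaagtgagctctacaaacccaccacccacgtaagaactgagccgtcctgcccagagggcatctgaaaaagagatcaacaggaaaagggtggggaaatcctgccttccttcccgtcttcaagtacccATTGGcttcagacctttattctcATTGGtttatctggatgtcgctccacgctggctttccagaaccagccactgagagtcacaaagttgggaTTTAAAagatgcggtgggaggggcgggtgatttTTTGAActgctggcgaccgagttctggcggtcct

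Each of the 4 windows held a CHR or its variant between positions −29 and −15 from the RefSeq start, counted from the first letter of the match. In Top2a it began at −23 and was read on the opposite strand, as in Ube2c, where it began at −29. In Cdk1 it began at −15, and in Cenpa the TTTAAA variant began at −17. Further TTTGAA matches began at −179 in Top2a, at −71 in Cdk1 and at 16, after the start, in Cenpa. The gene starts of GENCODE M21 lie elsewhere for Ube2c, Cdk1 and Cenpa, so these positions hold for the RefSeq starts only. The window of Top2a held 6 CCAAT boxes, and that of Ube2c also 6, of which the pair at −186 and −183 overlapped. Cdk1 held 3 and Cenpa 2.

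Values are FPKM, fragments per kilobase of transcript and per M fragments (1 M is 1e+06), as the authors deposited them. Ntn1, the deleted gene, stood at 16.3, 13.1 and 10.7 FPKM in Ntn1SPKO replicates 1 to 3, at 40.7, 24.2 and 51.4 FPKM in Foxd1GC controls and at 27.1 to 46.3 FPKM in wild-type kidneys, so every mutant lay below every other library. Rough depths, estimated from the steps between low values, were 25.9 to 41.1 M fragments. The member value with the fewest estimated fragments, Nek2 in control replicate 3, corresponded to about 412, for which counting error alone is 4.93%. A few members share sequence with other annotated genes, namely 45.9% of the 31-base words of Ccnb1, 27.4% of Cdc20, 17.0% of Ndc80 and 15% of Plk1. For Ccnb1, Cdc20 and Plk1 the gene sharing most words held next to no signal, with Ccnb1-ps at most 0.196 FPKM, Gm7856 at 0 and Plk-ps1 at most 0.0247 FPKM in any library. For Ndc80 it was 2700099C18Rik, at 9.09 to 11.6 FPKM, so that the value of Ndc80 is the less certain one. Foxd1GC control replicate 3 stood apart from the other 9 libraries in its cell type markers. The 16 skeletal muscle genes summed to 1002 FPKM there, against 105 and 254 FPKM in the other controls, 151 to 238 FPKM in wild-type and 66.8 to 130 FPKM in Ntn1SPKO libraries, and Myog was 30.0 FPKM against 0.379 to 5.62 FPKM. The 11 ureteric bud genes summed to 121 FPKM there and to 260 to 310 FPKM in the other libraries, with Ret at 4.09 FPKM against at least 14.1 FPKM. Summed cortical stroma markers were also highest there (1517 FPKM against 776 to 1288 FPKM), as were macrophage markers (36.8 FPKM against 14.1 to 23.2 FPKM). Nephron progenitor markers were present in all libraries, with Six2 at 63.1 to 96.4 FPKM, as were the stromal marker Foxd1 at 14.2 to 30.7 FPKM and the endothelial marker Pecam1 at 23.3 to 33.3 FPKM. The mean of Foxd1 was 24.4 FPKM in wild-type, 19.95 FPKM in Foxd1GC control and 14.6 FPKM in Ntn1SPKO libraries. Y-linked genes summed to 88.6 to 98.1 FPKM in wild-type replicate 3, control replicate 2 and all 3 Ntn1SPKO libraries, and to at most 1.02 FPKM in the others.

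**Figure D1:**
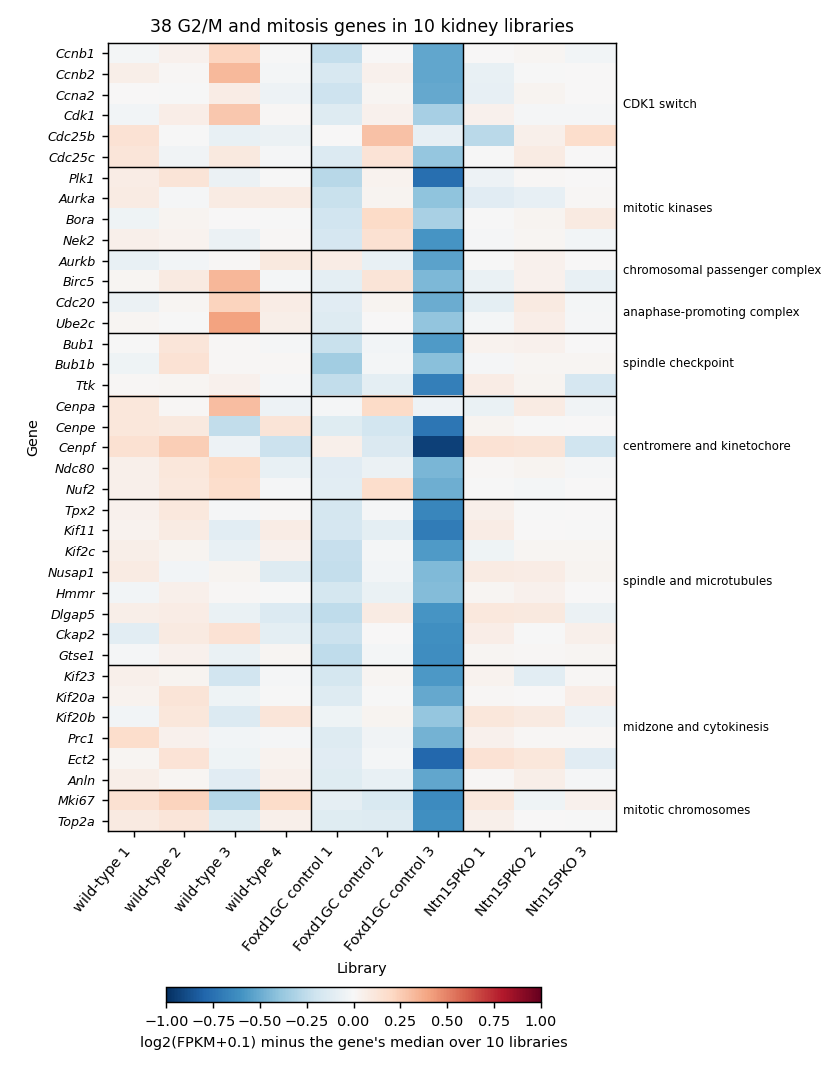
Levels of the 38 members (rows, grouped by role) in the 10 libraries (columns), as log2(FPKM+0.1) minus the gene's median over the libraries. Foxd1GC control replicate 3 is the lowest library for 36 members, and control replicate 1 is the second lowest for 29, while control replicate 2 and the Ntn1SPKO libraries stay near the wild-type ones.

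The 38 genes were nearly as high in Ntn1SPKO as in wild-type kidneys and lower in 2 of the 3 Foxd1GC controls. The median member stood at 99.4%, 99.1% and 97.4% of its wild-type mean in Ntn1SPKO replicates 1 to 3. In Foxd1GC control replicates 1 to 3 it stood at 87.8%, 97.3% and 67.6%. Control replicate 3 was below all wild-type and all mutant libraries for 36 of 38 members, and control replicate 1 for 29. Control replicate 2 lay within the range of the wild-type and mutant libraries for 29. The shares of all genes with these positions were not counted. The median of the 10113 genes at a mean of 5 FPKM or more stood at 96.8% of its wild-type mean in control replicate 3. Elsewhere it stood at 97.5% to 101%. Median-of-ratios factors were 1 in every library, so the scaling holds that median near its wild-type level. It therefore cannot show whether genes in general shifted. Control replicate 3 was the lowest of 10 libraries for 36 members and for 24.1% of the 14534 genes at a mean of 0.5 FPKM or more. Control replicate 1 was the lowest for 0 members and for 6.24% of these genes. The members together took 0.189% of all FPKM in control replicate 3, and between 0.246% and 0.304% in the other 9 libraries.

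Levels among the members spanned 9.42 FPKM (Gtse1, control replicate 3) to 242 FPKM (Ube2c, wild-type replicate 3). FPKM are scaled by length, so levels can be set side by side, but the scaling was not even in every library. In wild-type replicate 3, which enters the order below, deviations ran with coding length (Spearman correlation −0.65 over 9940 genes). In wild-type kidneys the order began with Top2a at 225 ± 16.6 FPKM (mean ± SD, n=4), Ube2c at 201 ± 28.1 FPKM and Cdk1 at 148 ± 13.9 FPKM, and it ended with Cdc25c at 16.7 ± 0.905 FPKM, Cdc25b at 16.6 ± 1.20 FPKM and Gtse1 at 14.5 ± 0.492 FPKM. Of the 37 pairs of neighbours in this order, only 5 had wild-type values that did not overlap, among them Ube2c above Cdk1 and Cdk1 above Ccna2. Top2a and Ube2c overlapped each other only through wild-type replicate 3, at 201 and 242 FPKM. In the other wild-type replicates Top2a was at 228 to 238 FPKM and Ube2c at 183 to 191 FPKM.

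**Figure D2:**
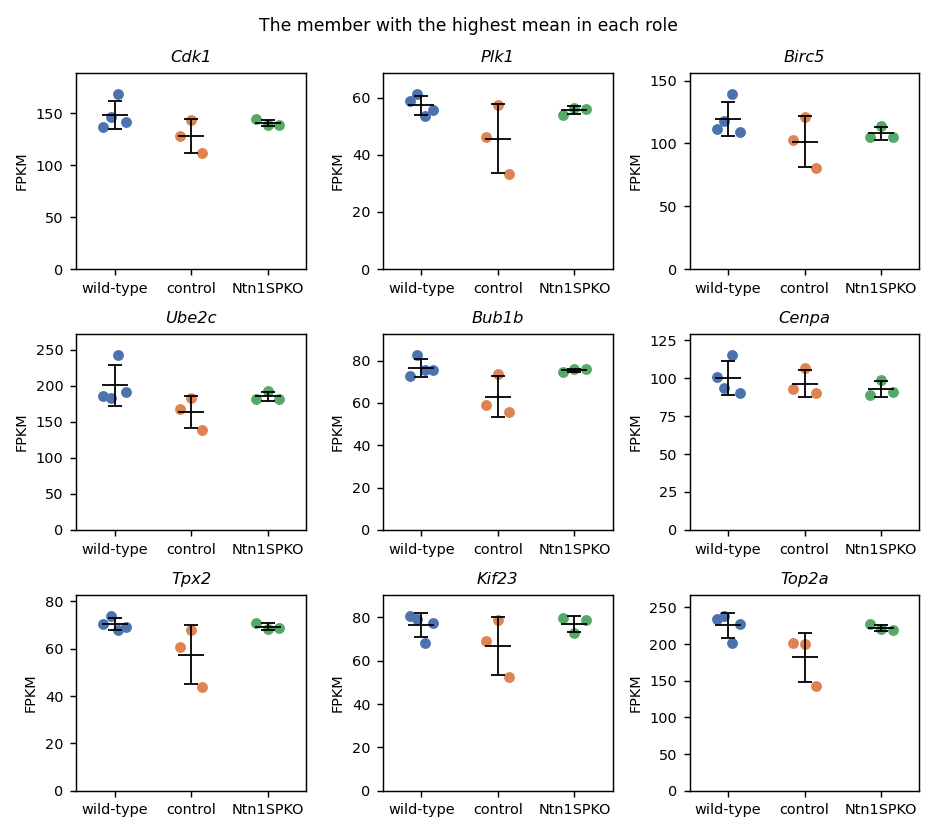
FPKM of the member with the highest mean in each of the 9 roles, with 1 point per library, a horizontal mark at the group mean and bars of 1 SD (n=4 wild-type, 3 control, 3 Ntn1SPKO). Relative to its mean, the control group is spread more widely than the wild-type group for each gene except Cenpa and Ube2c. Replicate 3 is at the bottom of the controls, while the 3 mutant points lie close together.

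The first role is the CDK1 switch. Cdk1, the kinase itself, measured 137, 146, 168 and 141 FPKM in wild-type replicates 1 to 4, 128, 144 and 111 FPKM in Foxd1GC controls, and 144, 138 and 139 FPKM in Ntn1SPKO kidneys. The mutants lay inside the wild-type range and control replicate 3 was lowest. Ccnb2, a B-type cyclin, measured 61.1, 59.2, 73.6 and 57.9 FPKM in wild-type, 52.8, 60.8 and 41.1 FPKM in control and 55.8, 58.7 and 59.0 FPKM in Ntn1SPKO libraries. Its highest value was that of wild-type replicate 3. Ccnb1, the main mitotic cyclin, and Ccna2, cyclin A2 of S phase and G2, had the same order of libraries at the low end, with 68.7 and 85.1 FPKM in control replicate 3. The phosphatases Cdc25b and Cdc25c, which remove the inhibitory phosphates of Cdk1, were the least abundant of this role. Cdc25b was lowest in Ntn1SPKO replicate 1 (13.8 FPKM) and highest in control replicate 2 (20.4 FPKM). It was the only member with a higher mean in controls than in wild-type kidneys, and leaving out control replicate 3 did not turn this round (log2 fold change 0.15 without it, 0.07 with it).

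Among the mitotic kinases, Plk1, the polo-like kinase, had a control group with a coefficient of variation of 26.6%. It measured 59.0, 61.2, 53.7 and 55.8 FPKM in wild-type, 46.2, 57.4 and 33.2 FPKM in control and 54.0, 56.6 and 56.1 FPKM in Ntn1SPKO kidneys. Control replicate 3 thus stood at 57.9% of the wild-type mean. Aurka, the Aurora kinase of the spindle poles, measured 45.6, 42.6, 45.7 and 45.6 FPKM in wild-type, 36.9, 44.0 and 32.6 FPKM in control and 39.9, 40.8 and 43.5 FPKM in mutant libraries. It was the member with the lowest p in the comparison of mutants with wild-type kidneys, with 2 of 3 mutants below all wild-type values. Bora, the cofactor through which Aurka activates Plk1, and Nek2, which separates the centrosomes, lay at 21.0 to 29.9 and 11.95 to 20.1 FPKM over the 10 libraries.

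In the chromosomal passenger complex, Birc5 (survivin) measured 112, 118, 139 and 109 FPKM in wild-type, 103, 121 and 80.7 FPKM in control and 105, 114 and 105 FPKM in Ntn1SPKO libraries. Its mutant values overlapped both groups. The kinase of the complex, Aurkb, was 35.05 FPKM in control replicate 3 and 48.1 to 54.3 FPKM in all others. For Aurkb, control replicate 1 was therefore not low. In the anaphase-promoting complex, its ubiquitin-conjugating enzyme Ube2c measured 186, 183, 242 and 191 FPKM in wild-type, 167, 184 and 139 FPKM in control and 181, 192 and 182 FPKM in mutant kidneys. Wild-type replicate 3 stood above and controls 1 and 3 below the rest. Its activator Cdc20 ranged from 48.1 FPKM in control replicate 3 to 79.2 FPKM in wild-type replicate 3.

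All 3 spindle checkpoint kinases had lower means in controls than in both other groups. Bub1b (BubR1) measured 72.8, 82.6, 75.3 and 75.3 FPKM in wild-type, 58.8, 73.9 and 55.9 FPKM in control and 74.5, 75.8 and 76.0 FPKM in Ntn1SPKO libraries. The 3 mutants spanned a narrow range just above control replicate 2. Bub1, which recruits checkpoint proteins to kinetochores, measured 44.3, 48.3, 44.8 and 44.1 FPKM in wild-type, 37.9, 43.5 and 29.9 FPKM in control and 45.5, 45.7 and 44.4 FPKM in mutant libraries. Every control lay below every other library. Ttk (Mps1) measured 38.2, 38.6, 39.1 and 37.8 FPKM in wild-type, 32.0, 35.5 and 23.6 FPKM in control and 40.1, 38.8 and 33.8 FPKM in mutant libraries. Ttk controls did not overlap wild-type kidneys but did overlap the mutants, through mutant replicate 3.

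The centromere and kinetochore members included the member that was lowest in control replicate 3 relative to wild-type kidneys, Cenpf, and 1 of the highest, Cenpa. Cenpa, the histone H3 variant that marks centromeres, measured 101, 93.9, 115 and 90.2 FPKM in wild-type, 92.7, 107 and 90.2 FPKM in control and 89.2, 98.9 and 91.1 FPKM in Ntn1SPKO libraries, and the groups overlapped throughout. Cenpf, a large kinetochore protein, was 20.8 FPKM in control replicate 3, which is 50.7% of its wild-type mean, and 34.2 to 47.3 FPKM elsewhere. Ndc80, which binds microtubules, measured 33.7, 35.2, 37.1 and 30.8 FPKM in wild-type, 30.1, 31.2 and 23.6 FPKM in control and 32.8, 33.1 and 32.2 FPKM in mutant kidneys. Its partner Nuf2 measured 43.8, 45.3, 47.8 and 41.8 FPKM in wild-type, 39.2, 47.7 and 30.0 FPKM in control and 42.1, 41.7 and 42.3 FPKM in mutant kidneys. Ndc80 and Nuf2 thus had closely matched mutant libraries and a control replicate 3 that was lowest. The kinesin Cenpe was 21.6 FPKM in that library and 30.1 to 39.1 FPKM in the others.

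Of the 8 spindle members, all had control replicate 3 as the lowest and control replicate 1 as the second lowest library. Tpx2, which activates Aurka on spindle microtubules, measured 70.6, 73.8, 67.9 and 69.2 FPKM in wild-type, 60.9, 68.0 and 43.6 FPKM in control and 70.9, 68.2 and 68.9 FPKM in Ntn1SPKO libraries. Nusap1, which binds and bundles spindle microtubules, measured 55.1, 51.2, 53.1 and 47.8 FPKM in wild-type, 44.3, 51.2 and 38.3 FPKM in control and 55.3, 54.9 and 53.1 FPKM in mutant libraries. Hmmr, a spindle assembly factor, measured 28.1, 29.6, 28.8 and 28.5 FPKM in wild-type, 25.3, 27.4 and 21.1 FPKM in control and 28.9, 29.6 and 28.8 FPKM in mutant libraries. For Nusap1 and Hmmr all mutants lay above all controls, and for Hmmr all wild-type kidneys did too. Kif11, the kinesin that pushes the spindle poles apart, and the microtubule depolymerase Kif2c were at 31.7 and 22.7 FPKM in control replicate 3. Dlgap5, Ckap2 and Gtse1, further microtubule proteins, lay at 21.4, 16.9 and 9.42 FPKM there.

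The 6 members of the midzone and cytokinesis were led by Kif23, the kinesin of centralspindlin. It measured 80.7, 79.4, 68.4 and 77.6 FPKM in wild-type, 69.3, 79.0 and 52.4 FPKM in control and 79.9, 72.7 and 78.6 FPKM in mutant libraries, so that wild-type replicate 3 lay beneath control replicate 1. Ect2, the exchange factor that activates RhoA at the cleavage furrow, was 26.8 FPKM in control replicate 3, against 42.8 to 51.3 FPKM elsewhere. Kif20a, Kif20b, Anln (anillin) and Prc1, which crosslinks the midzone microtubules, had 68.7%, 75.6%, 69.4% and 69.5% of their wild-type mean there.

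Of the chromosome proteins, Top2a, the topoisomerase that untangles sister chromatids, measured 234, 238, 201 and 228 FPKM in wild-type, 202, 201 and 143 FPKM in control and 227, 220 and 219 FPKM in Ntn1SPKO libraries. Mki67, the Ki-67 protein that coats mitotic chromosomes and marks cycling cells, measured 103, 108, 75.6 and 105 FPKM in wild-type, 86.8, 82.9 and 59.7 FPKM in control and 99.2, 89.5 and 95.2 FPKM in mutant kidneys. For both, all mutants were above all controls, and wild-type replicate 3 lay close to or below controls 1 and 2.

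Groups were compared with limma on log2(FPKM+0.1) for each gene that averaged 0.5 FPKM or more in the libraries fitted, a filter that all 38 members passed. The comparison of Ntn1SPKO with Foxd1GC control kidneys, which both carry the Cre allele, had no member that passed the test. Of 38 members, 36 (94.7%) had a higher mean in mutants, as did 51.2% of the 14550 genes tested, and the exceptions were Cdc25b and Cenpa. The median log2 fold change of the members was 0.24 (1.18-fold), against 0.01 for all genes. A call needed a limma adjusted p under 0.1 and at least a 2-fold change, and it was made for 0 members and for 0.055% of all genes (8 genes). The largest member difference was 0.37 on the log2 scale (Cenpf, standard error 0.26), or 1.29-fold. Unadjusted p-values under 0.05 were obtained for 3 members (7.89%), all higher, which were Nusap1, Bub1b and Hmmr, and 5.49% of all genes reached this in the same direction. Mutants lay above controls without overlap for 14 members (36.8%) and for 11% of all genes. These 14 included Bub1, Bub1b, Mki67 and Top2a, and 5 of the 8 spindle genes.

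The 5 members with the lowest p in this comparison were Nusap1 (chr2:119618298-119651244 in GRCm38), Bub1b (chr2:118598211-118641591), Hmmr (chr11:40701395-40733422), Mki67 (chr7:135689784-135716361) and Bub1 (chr2:127801122-127831865). Their log2 fold changes were 0.30 (standard error 0.11) for Nusap1, 0.27 (0.11) for Bub1b, 0.25 (0.10) for Hmmr, 0.33 (0.15) for Mki67 and 0.30 (0.13) for Bub1. Each had a limma adjusted p of 0.447 and an exact permutation p of 0.1, two-sided, which is the smallest that 3 libraries against 3 can give. By role, the median log2 fold change was between 0.15 and 0.19 for the CDK1 switch, the kinases, the passenger complex and the anaphase-promoting complex. It was 0.22 for the centromere and kinetochore, 0.24 for the midzone, and between 0.30 and 0.31 for the checkpoint, the spindle and the chromosome proteins. The roles also differ in coding length, with which the deviations of the members ran in some libraries. The medians by role were taken without removing that trend, and its part in their order was not tested.

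The size of these differences rested on single libraries. Without control replicate 3, the library with high muscle and low ureteric bud markers, the median was 0.10 and 34 members were higher, with 3 members at an unadjusted p under 0.05 (1045 of 14459 genes, in either direction) and 0 called. Without control replicate 2 it was 0.35, all 38 were higher and 27 (71.1%) reached an unadjusted p under 0.05, but in that fit 23.5% of all genes did too, against 10.7% with every library. Control replicate 2 was also the only control with a high Y-linked sum, which all 3 mutants had. With embryo sex as a covariate, the planned split was at a Y-linked sum of 1 FPKM. Control replicate 3, at 1.02 FPKM, just passed it and was grouped with libraries at 88.6 to 98.1 FPKM. The mutants were thus set against control replicates 2 and 3, as when control replicate 1 was left out. In that fit the median was 0.27, with 36 members higher and 3 at an unadjusted p under 0.05 (7.89%, against 7.07% of genes). Split at 10 FPKM, a limit chosen after the data were seen, the mutants were set against control replicate 2 alone, and the median was 0.026, with 22 members higher and 0 at an unadjusted p under 0.05 (3.55% of genes). The parts of embryo sex and of muscle or ureteric bud content in the difference were not tested.

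**Figure D3:**
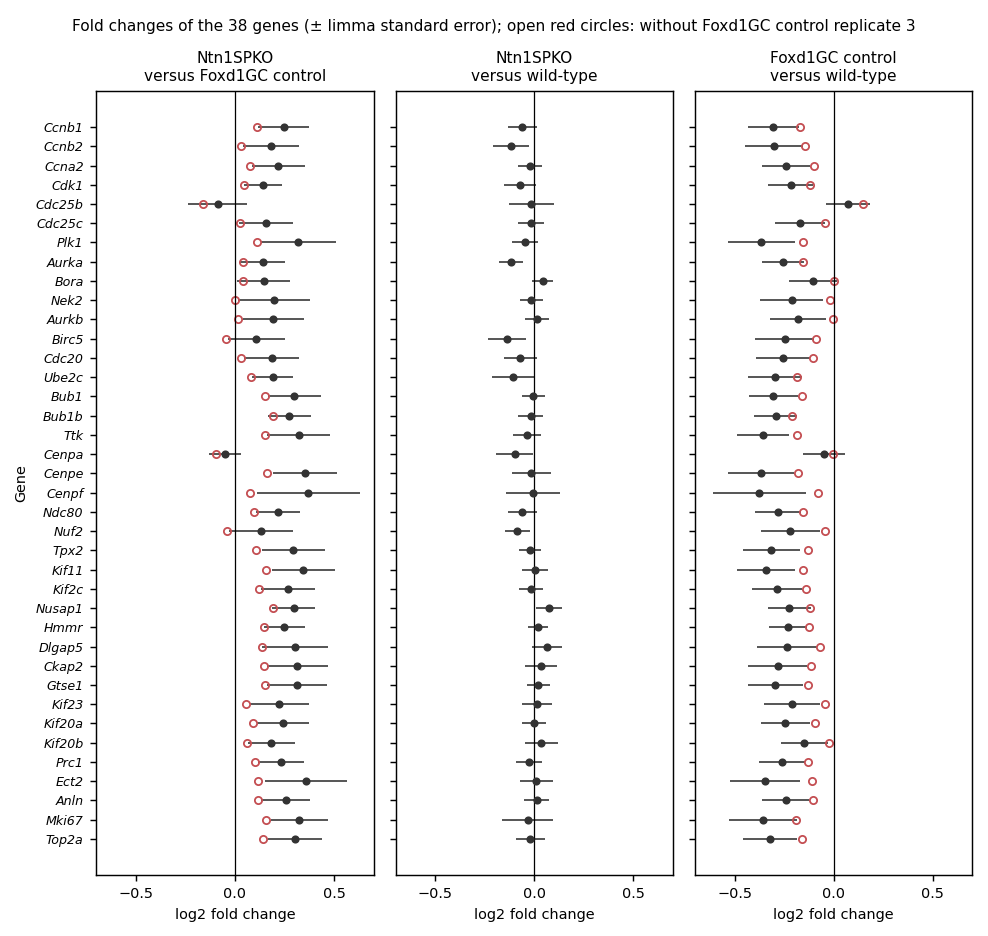
Log2 fold changes (horizontal axis) of the 38 members (vertical axis) in the 3 comparisons, as black points with limma standard errors. Open red circles give the value without Foxd1GC control replicate 3. The members lie right of 0 against controls, around 0 against wild-type kidneys and left of 0 for controls against wild-type kidneys, and leaving out that library moves the medians from 0.24 to 0.10 and from −0.26 to −0.12.

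Ntn1SPKO and wild-type kidneys differed little in these genes. Of the members, 12 were higher and 26 lower in mutants, and log2 fold changes lay between −0.14 and 0.07 with a median of −0.02. Standard errors were 0.05 to 0.14, and 6 members differed by more than their standard error. No member was called (0.0485% of 14432 genes), none had an unadjusted p under 0.05 (5.76% of genes in either direction) and none had groups without overlap (7.1%). All 3 mutants lay inside the wild-type range for 23 of 38 members. The share of all genes for which this held was not counted. The lowest p-values were those of Aurka at −0.12 (standard error 0.06), Birc5 at −0.14 (0.09), Nuf2 at −0.09 (0.06), Ccnb2 at −0.12 (0.09) and Nusap1 at 0.07 (0.07). Their limma adjusted p was 0.947 for each, and the exact permutation p of Aurka was 0.0857. The sign of the median depended on scaling, since it was 0.039 with 28 members higher when libraries were rescaled to the same sum. Only wild-type replicate 3 shared Y-linked RNA with the mutants.

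Foxd1GC control kidneys had lower means than wild-type kidneys for 37 of 38 members (97.4%), and 51.6% of the 14594 genes tested were lower. The median log2 fold change was −0.26 (−0.01 for all genes), 0 members were called (0.00685% of genes), and the lowest limma adjusted p was 0.665. Lower at an unadjusted p under 0.05 were 9 members (23.7%), against 3.23% of all genes. These were Ccnb1, Aurka, the checkpoint kinases Bub1, Bub1b and Ttk, Ndc80, Kif11, Hmmr and Top2a. Controls lay below wild-type kidneys without overlap for Bub1, Ttk, Hmmr and Prc1 (10.5% of members, 4.04% of genes), each with an exact permutation p of 0.0286, the smallest that 3 libraries against 4 can give. The 5 members with the lowest p were Bub1b at −0.29 (standard error 0.11), Ttk at −0.36 (0.13), Bub1 at −0.30 (0.12), Aurka at −0.26 (0.11) and Ndc80 at −0.28 (0.12). Without control replicate 3 the median was −0.12, with 1 member at an unadjusted p under 0.05 (2.63%, against 3.7% of genes in either direction). Without control replicate 2 it was −0.38 with 31 members (81.6%, against 15.6% of genes). This comparison shares its control libraries with that of the mutants against controls, so their values are not independent.

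Other cell-cycle lists were set beside the members. Of 50 other mitotic genes tested, 42 were higher in Ntn1SPKO than in control kidneys (median log2 fold change 0.15), with 4 higher and 1 lower at an unadjusted p under 0.05. Of all 14550 genes tested, 51.2% were higher, and 5.49% were higher at that limit. The lowest p-values were those of the anaphase inhibitor securin, Pttg1 (0.46, standard error 0.11), the microtubule polymerase Ckap5 (0.31, 0.09), Cdca2 (0.28, 0.08) and the kinetochore subunit Spc24, which was lower (−0.20, 0.07). Of 30 S phase genes, 25 were higher (median 0.13), 6 of them at an unadjusted p under 0.05 and none lower. Those with the lowest p were the helicase subunits Mcm4 (0.22, 0.06), Mcm3 (0.20, 0.06) and Mcm6 (0.17, 0.06) and the loading factor Cdc6 (0.34, 0.10). No gene of these lists was called, and their lowest limma adjusted p was 0.447. Against wild-type kidneys the medians in mutants were 0.01 for other mitotic genes and 0.00 for S phase genes, and controls had −0.18 and −0.13.

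Regulators further upstream were described in the same way. The 14 G2/M transcription regulators had a median log2 fold change of 0.06 in mutants against controls, with 10 higher and 0 at an unadjusted p under 0.05. The lowest p-values among them were those of Mybl2, the MYB protein of the MuvB complex (0.16, standard error 0.07), the NF-Y subunit Nfyc (0.12, 0.07), Foxm1, the forkhead factor of G2/M genes (0.21, 0.12), and the pocket protein Rbl1 (0.21, 0.13). Of 12 G1 regulators, 10 were higher, 4 of them at an unadjusted p under 0.05, against 5.49% of all genes. These 4 were Myc (0.21, 0.06), Ccnd2, cyclin D2 (0.21, 0.07), E2f3 (0.29, 0.11) and Mycn (0.40, 0.16). Myc was the one whose 3 mutant values, 53.3, 54.6 and 50.2 FPKM, lay above all other libraries, at 45.4 to 46.1 FPKM in controls and 42.5 to 44.98 FPKM in wild-type kidneys. The 5 CDK inhibitors tested were all lower (median −0.27), with 0 at an unadjusted p under 0.05. The 4 with the lowest p were Cdkn2c at −0.39 (0.21), Cdkn1c at −0.30 (0.19), Cdkn1a at −0.27 (0.22) and Cdkn2d at −0.13 (0.11). Cdkn1c, an inhibitor that holds cells out of the cycle, was 964 FPKM in control replicate 3, against 559 and 634 FPKM in the other controls and 546 to 588 FPKM in mutants.

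**Figure D4:**
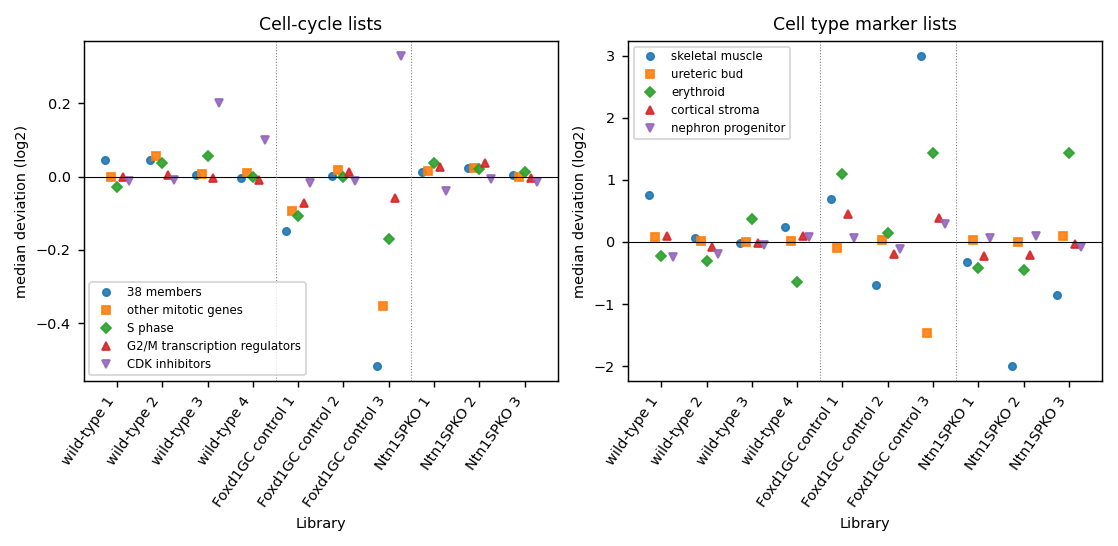
Median deviation of each gene list in each library, in log2 units from the gene's own median over the 10 libraries, for cell-cycle lists (left) and cell type marker lists (right). In Foxd1GC control replicate 3 the 38 members and other mitotic genes are lowest, S phase genes less so, CDK inhibitors are high, and skeletal muscle genes lie at 2.99 and ureteric bud genes at −1.47.

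Within libraries the lists did not shift by the same amount. In control replicate 3 the median deviation was −0.52 for the members, −0.35 for other mitotic genes, −0.17 for S phase genes and −0.06 for G2/M regulators. In control replicate 1 it was −0.15, −0.10, −0.11 and −0.07. In the other 8 libraries the members' median deviation lay between −0.0039 and 0.05, and that of S phase genes between −0.03 and 0.06. Among the marker lists, skeletal muscle genes deviated by 2.99 in control replicate 3 and 0.70 in control replicate 1, ureteric bud genes by −1.47 and −0.10, macrophage genes by 0.99 and 0.26, and erythroid genes by 1.42 and 1.09. Cortical stroma genes (0.39 and 0.46) and liver genes (1.18 and 1.35) deviated in replicate 1 about as much as in replicate 3. Erythroid genes were also high in Ntn1SPKO replicate 3 (1.43), where the members deviated by 0.00. Skeletal muscle genes were also high in wild-type replicate 1 (0.75), where the members deviated by 0.04. No test of the difference between lists was made.

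The members varied together. Over the 10 libraries the median Pearson correlation between pairs of members was 0.84 (703 pairs, log2 scale), against 0.46 for other mitotic and 0.39 for S phase genes. Without control replicate 3 it was 0.42, 0.15 and 0.26, lower for each list. Of the 703 pairs of members, 147 then had a negative correlation, against 4 over the 10 libraries. Cdc25b followed the other members least (correlation with their median 0.17 over 10 libraries), then Cenpa (0.30). Without control replicate 3 the lowest were Aurkb (−0.27) and Cdc25b (−0.11). Outside the members, the 5 genes most like the members' median, of 10046 searched, were Gm49328, Prps2, Map7, Ppig and Sgo2a, with correlations of 0.98 to 0.99 over 10 libraries and 0.87 to 0.93 without control replicate 3. Sgo2a, a shugoshin that protects sister chromatid cohesion, was 11.03 FPKM in control replicate 3 and 14.98 to 17.4 FPKM elsewhere. All correlations are over libraries that share depth and tissue content, and they are descriptions.

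Spread within groups differed as well. The median coefficient of variation of the members was 5.96% in wild-type, 18.6% in Foxd1GC control and 2.60% in Ntn1SPKO libraries, while that of the 10113 genes at a mean of 5 FPKM or more was 10.5%, 9.30% and 5.74%. In controls the members were thus more variable than genes in general, and in both other groups less. The control value includes replicate 3, the lowest library for 36 members, and it was not computed without that library. The widest control group was that of Cenpf (32.6%), and the tightest mutant group was that of Gtse1 (0.469%).

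In some libraries the deviations of the members ran with their coding length. Wild-type replicate 3 had short genes high and long genes low, with a Spearman correlation between coding length and deviation of −0.77 over the 38 members and −0.65 over 9940 genes. There the 14 members with a coding length under 1500 bases, which include Ube2c, Birc5, Cenpa and Cdk1, had a median deviation of 0.20, and the 9 members of at least 3000 bases, among them Mki67, Cenpf and Top2a, had −0.11. The correlation was also negative, though smaller in size, in control replicate 2 (−0.63 over members, −0.24 over genes) and control replicate 3 (−0.54 and −0.24). In control replicate 3 the short members were low too, at −0.47 against −0.61 for long ones. In Ntn1SPKO replicate 1 the correlation was 0.64 over members, with medians of −0.01 for short and 0.05 for long ones. In wild-type replicate 2 it was 0.65, with medians of 0.01 and 0.12. With the length trend removed from each library, the median log2 fold change of mutants against controls was 0.21 with 37 members higher. The cause of the length trend was not tested.

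**Figure D5:**
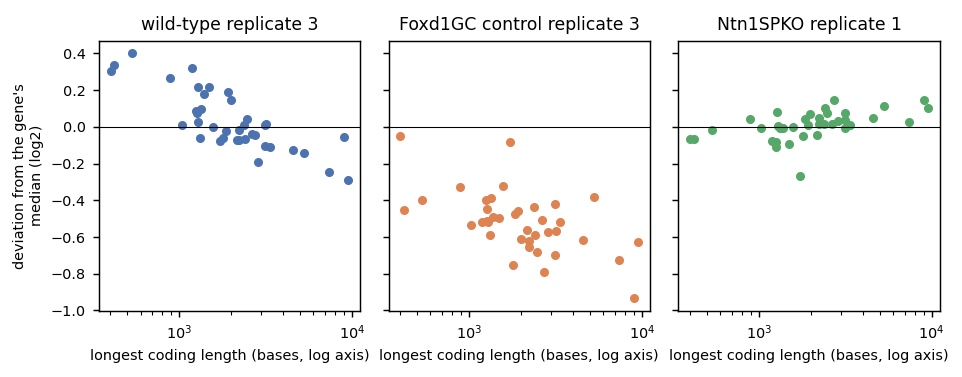
Deviation of each of the 38 members from its own median over the 10 libraries (log2) against its longest coding length in bases (log axis) in 3 libraries. Wild-type replicate 3 slopes down through 0, Foxd1GC control replicate 3 slopes down with all 38 members below 0, and Ntn1SPKO replicate 1 slopes slightly up.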

How the data were processed

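RNA-seq of 10 whole-kidney libraries from E13.5 embryos was used. The authors quantified reads with Salmon against coding sequences of Ensembl GRCm38, imported the estimates with tximport and used DESeq2 for their tests. Per gene symbol, the deposited table holds FPKM, with no counts, and how FPKM were derived is not given in the sources used here. Median-of-ratios factors computed from the deposited FPKM were 1 in all 10 libraries, and values were used as they are. Because counts were not used, limma 3.58.1 (R 4.3.3) was run on log2(FPKM+0.1) for each gene averaging 0.5 FPKM or more in the 2 groups compared (eBayes with an intensity trend, Benjamini-Hochberg adjustment over all genes tested), separately for each pair of groups. A call needed an adjusted p under 0.1 and at least a 2-fold change. Fold changes on this scale understate those of low genes. Exact permutation tests were two-sided. Depth was estimated from the steps between low FPKM, and counting error covers fragments only. Gene lengths and positions are those of GENCODE M21 for GRCm38, and promoter windows those of RefSeq for GRCm38.p6. The submitters' processing notes also name bcl2fastq 2.17.1.14 and mm10.

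The members and gene lists were written from general knowledge of gene function, with earlier results of these data known, so counts over them are descriptions. Values in every library were given for the member with the highest mean in each role and for the 5 with the lowest p in each comparison. Of the other cell-cycle lists, up to 4 genes with the lowest p in mutants against controls were named. Markers of neural, macrophage, cartilage, liver and adrenal or gonadal tissue were at summed levels of 13.0 to 25.4, 14.1 to 36.8, 30.9 to 47.6, 2.52 to 27.7 and 0.379 to 1.63 FPKM over the 10 libraries. Alternatives were other pseudocounts, filters, scalings and eBayes settings, a single fit of the 10 libraries, a block for replicate number, embryo sex as a covariate and leaving out each library. The block entered replicate number as a covariate and kept only numbers found in both groups, so wild-type replicate 4 was left out of it. The package statmod 1.5.0 was loaded beside limma. A limit of 10 FPKM for embryo sex, and removal of the length trend, were chosen after the data had been seen. The limma fit of mutants against controls was tested on simulated data, with genes varying independently and planted changes larger than those of the members. The other steps were not tested in this way.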

Additional observations from a re-analysis of the deposited data

Results flagged for a closer look

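Of the 39 values examined in the 4 wild-type libraries, 38 of them member levels, 5 had 1 library far from the other 3 by Dixon's criterion, which chance meets in about 1 in 20 groups. Ube2c was 242 FPKM in wild-type replicate 3 and 183 to 191 FPKM in the others. Cenpe was 30.1 FPKM in wild-type replicate 3 and 38.4 to 39.1 FPKM in the others, and Mki67 was 75.6 FPKM there against 103 to 108 FPKM. These 3 departures run with coding length in that library, high for the short Ube2c and low for the long Cenpe and Mki67. Aurka was 42.6 FPKM in wild-type replicate 2 against 45.6 to 45.7 FPKM, and Bub1 was 48.3 FPKM in that library against 44.1 to 44.8 FPKM. Groups of 3 libraries were not examined in this way.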

How the results depend on the processing

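No member was called in any of the 3 comparisons under any alternative, so what changed was the median and the count of members at an unadjusted p under 0.05. Beside each count stands the share of all genes under that p in the same fit, in either direction. In mutants against controls, where the count was 3 (10.7% of genes) and the median 0.24, the count was 0 without the intensity trend (9.02%), 12 with all 10 libraries in one fit (11%), 5 with the replicate number as a block (11.1%) and 1 with the length trend removed (9.42%). With embryo sex as a covariate it was 3 (7.07%) at the planned limit of 1 FPKM, with a median of 0.27. That fit sets the mutants against control replicates 2 and 3. At 10 FPKM, where the mutants are set against control replicate 2 alone, the median was 0.026. Leaving out 1 library gave counts of 0 to 27 (4.72% to 23.5%) and medians of 0.10 to 0.35. In mutants against wild-type kidneys, where the count was 0 (5.76%) and the median −0.02, the median was 0.039 after rescaling to the same sum. With embryo sex as a covariate, at a limit of either 1 or 10 FPKM, the median was 0.033 and the count 12 (31.6% of members, 30.1% of genes), and that fit sets the mutants against wild-type replicate 3 alone. The count was 1 with the length trend removed (6.96%). Leaving out 1 library gave counts of 0 to 2 (4.13% to 7.35%) and medians of −0.03 to 0.0042. In controls against wild-type kidneys, where the count was 9 (7.06%) and the median −0.26, the count was 3 after quantile normalization (6.73%), 0 after rescaling to the same sum (4.63%), 2 without the intensity trend (6.92%), 21 with all 10 libraries (10.3%), 3 and 15 with embryo sex split at 1 and 10 FPKM (7.85% and 11%), and 16 with the length trend removed (9.93%). Leaving out 1 library gave counts of 0 to 31 (3.7% to 15.6%) and medians of −0.38 to −0.12. The causes were not tested. Control replicate 3, whose Y-linked sum was 1.02 FPKM, lies at the limit of 1 FPKM. In the fits that leave 2 libraries in a group, the spread of both groups is pooled.

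Of the named members, few changed direction, and none was past the limits before or after. Against controls, Cdk1 (−0.035), Plk1 (−0.048), Birc5 (−0.16) and Kif23 (−0.037) were lower in mutants with embryo sex split at 10 FPKM, Birc5 was −0.047 without control replicate 3, and Cenpa was 0.031 with the length trend removed and −0.097 to 0.024 when 1 library was left out, above 0 without control replicate 2. In controls against wild-type kidneys Cenpa was 0.025 after quantile normalization and 0.021 without wild-type replicate 3. Same-numbered libraries deviated from their group means with correlations of −0.0388 to 0.0785. Differently numbered libraries were not compared in this way, so these values cannot show whether replicate numbers pair the libraries. With the replicate number as a block the count of members at an unadjusted p under 0.05 was 5 against controls, 0 in mutants against wild-type kidneys and 9 in controls against wild-type kidneys. A limma adjusted p under 0.1 was reached, under a 2-fold change, by 1 member in mutants against controls without control replicate 2 (0.0942, with 131 of all genes) and by 8 in mutants against wild-type kidneys with embryo sex as a covariate (lowest 0.0108, with 22.5% of all genes).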
